A study of Mus musculus with 2 samples.

Results

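Secretoglobins are small secreted proteins of mucosal surfaces, and Scgb1a1, Scgb3a1 and Scgb3a2 are those best known from the airway. They were examined together with 5 other genes linked to airway secretory or conducting epithelium, Sec14l3, Gabrp, Chad, Reg3g and Krt15, in fetal lung lobes of mice that lack or carry Foxj1. A gene belonged to the set when a non-control probe of the array carried its name or an accession that the RefSeq table gives its symbol. A synonym in that table also counted, which applied to 1 probe of Sec14l3. All 8 genes were found, with 11 probes among them, out of 21171 genes detected in 1 channel or both, and all 8 were detected in both. A gene counts as detected where the scanner software called its spots well above their background.

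The heterozygous lung (Foxj1 +/–) and the homozygous lung (Foxj1 –/–) came from male littermates at E16.5, so both carried Foxj1lacZ, and no wild-type lung was on the array. The strain was an Sv129/CD-1 hybrid. One lung of each genotype was used, with tissue outside the lobes trimmed away. The heterozygous RNA was labelled with Cy3 (green) and the homozygous RNA with Cy5 (red), and both were hybridised to 1 array without a dye swap. Genotype, animal and dye therefore cannot be told apart, no difference below has a replicate check, and no p-value is given. The source names speak of lung epithelium, but whole lobes were homogenised.

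Club cells are the secretory cells of the mouse conducting airway. They release secretoglobins into the airway lining fluid, carry enzymes that oxidise and conjugate inhaled compounds, and can renew themselves and give rise to ciliated cells. Foxj1 is the transcription factor known for driving motile ciliogenesis in the neighbouring ciliated cells. In RNA from whole lobes, fewer cells of a type and less RNA per cell cannot be told apart.

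Ratios are log2 of homozygous over heterozygous, so a value below 0 means a weaker signal in the homozygous lung. Levels are log2 intensities after background correction and loess. Each ± gives the error that the scanner software attached to its own log ratio (n = 1 lung per genotype), and it covers spot and channel noise only. A probe's brightness depends on its sequence, so levels of different genes are not ranked against each other. The share of detected spots was 69.0% (heterozygous) and 75.6% (homozygous), and Foxj1 itself stood at 9.53 and 7.61, a ratio of −1.92 ± 0.30. Whether its probe lies in the part of the gene that the allele removes was not tested.

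All 8 genes had a weaker signal in the homozygous lung, and the loss ran from 1.65-fold for Chad to 9.15-fold for Scgb3a1. Ratios below 0 were found for 50.4% of all detected genes. Of the 8, 4 were at least 2-fold lower (log2 ratio of at most −1) against 1.88% of all detected genes, and none was at least 2-fold higher against 0.576%. Scgb3a1 and Scgb1a1 were more than 4-fold lower, against 0.231%, though Scgb1a1 was 3.84-fold lower with median centring in place of loess. The median of the 8 was −1.03, or 2.05-fold lower, beside −0.003 for all 21171 genes. The genes were proposed with earlier results of this array known, so these counts describe them and are not independent evidence of a direction. The split of all genes between 398 lower and 122 higher became 302 and 724 when ratios were centred on their median without loess, and 2 of the 8 genes, Scgb3a1 and Scgb1a1, were then at least 2-fold lower.

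**Figure D1:**
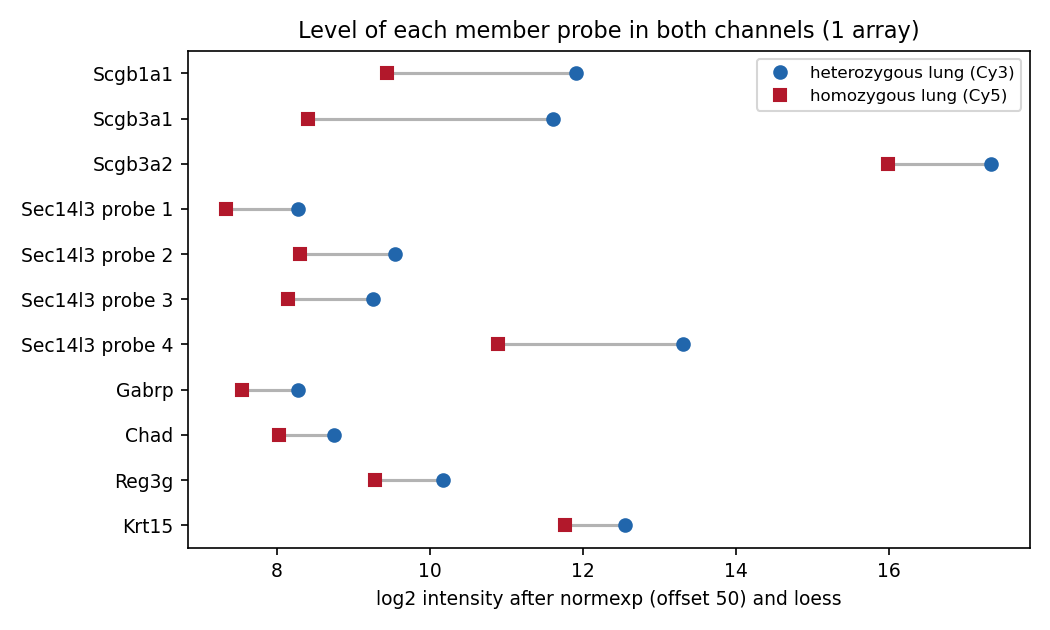
Log2 intensity (horizontal axis) of each of the 11 probes in the heterozygous channel (blue circles) and the homozygous channel (red squares), 1 row per probe, from 1 array without replicates. Every red square lies left of its blue circle, with ratios from −3.19 for Scgb3a1 to −0.73 for Chad; horizontal positions of different probes are not comparable as amounts of RNA.

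Each of the 3 secretoglobins rests on 1 probe of 60 bases. The first 30 bases of the Scgb1a1 and Scgb3a1 probes are shown, as the array file lists them, because the 2 deepest losses of the set were read from them.
Scgb1a1: tgaagctcactggatttcagagatattcta
Scgb3a1: gttgaggggaacctgggaaaattctgcctg
The Scgb1a1 probe lies at chr19:9150752-9150811 on the minus strand and the Scgb3a1 probe at chr11:49508410-49508469 on the plus strand of mm8, the build of the array file. Both have 45.0% G and C. No run of 20 bases of any of the 11 probes occurs in another of the 41174 probes of the array.

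Scgb1a1, the uteroglobin that defines club cells, gave a mean spot signal of 2792 in the heterozygous channel over a local background of 46.5, and 992 in the homozygous channel over 61.5. Its levels were 11.91 (heterozygous) and 9.45 (homozygous), a ratio of −2.47 ± 0.31, or 5.54-fold lower. The homozygous spot was thus still 16.1 times its background. The signal of the club cell marker was reduced and remained measurable.

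Scgb3a1, a secretoglobin of larger airways, had mean signals of 2290 over a background of 45 and 486 over 61. Its levels of 11.60 (heterozygous) and 8.41 (homozygous) gave −3.19 ± 0.38, the lowest ratio of the 8 genes. The gap of 0.72 to Scgb1a1 was larger than the combined scanner error of 0.49. With 1 lung per genotype this does not show that the 2 genes respond differently.

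Scgb3a2, a secretoglobin known from early airway secretory cells of the fetal lung, was among the brightest spots of the array. Its mean signals were 101160 in the heterozygous and 106923 in the homozygous channel, and neither spot was saturated. The raw red signal was therefore slightly higher, and the ratio was below 0 only after normalization of the dyes. After loess its levels were 17.34 (heterozygous) and 15.99 (homozygous), a ratio of −1.35 ± 0.26, or 2.55-fold lower. It became −0.35 with median centring in place of loess and −1.83 with the scanner software's own ratio, which replaces both the background and the dye correction.

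Genes as bright as Scgb3a2 did not centre on 0 even after loess. The 182 genes within 0.5 of its mean log2 intensity had a median ratio of 0.71, and none of them was 2-fold lower. Measured against those genes, Scgb3a2 stood at −2.06. That distance was −2.04 with median centring and −2.14 with the scanner software's ratio. Subtracting the median of like-bright genes takes out a shift with brightness in any setting. The closeness of these values is therefore not separate evidence. For the other 7 genes the median of like-bright genes lay between −0.04 and 0.03.

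The probe for Scgb3a2 lies at chr18:43892605-43892664 on the plus strand of mm8. No other member of the family was measurable. The array carried 6 more genes with a secretoglobin symbol, Scgb1b2, Scgb1b27, Scgb2b2, Scgb2b20, Scgb2b24 and Scgb2b26, which encode the androgen-binding proteins known from mouse saliva. Their mean signals were 87.4 to 104.6 (heterozygous) and 80.5 to 97.3 (homozygous), and 0 of 6 probes were well above background in either channel. A further gene listed as Abpb, and Aoc1, an amine oxidase once also named Abp1, were not well above background.

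**Figure D2:**
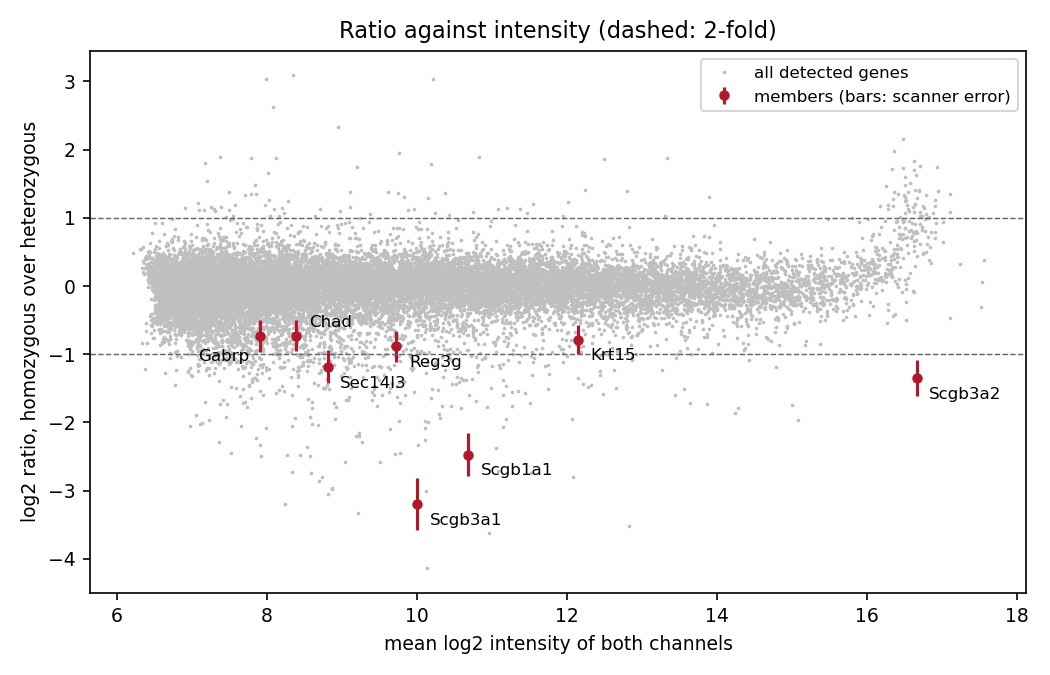
Log2 ratio of homozygous over heterozygous (vertical axis) against the mean log2 intensity of both channels (horizontal axis) for all 21171 detected genes (grey) and the 8 genes described here (red, bars are the scanner error); dashed lines mark 2-fold. Scgb3a1 at −3.19 and Scgb1a1 at −2.47 lie far below most grey points, among the 0.231% of genes with a ratio of at most −2. Scgb3a2 at −1.35 lies below a cloud of bright genes that bends upward to a median of 0.71.

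Sec14l3 encodes a lipid-binding protein of the Sec14 family and was the only gene of the set with several probes. Stretches of the 4 probes assigned to it, the last only through a synonym, are shown because they gave different ratios. The first is printed whole, since its 60 bases span 1324 bases of genome and so cross an intron. The others are 30 bases, and capitals mark AATAAA, the usual polyadenylation signal.
Sec14l3 probe 1: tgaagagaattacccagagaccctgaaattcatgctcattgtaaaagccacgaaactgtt
Sec14l3 probe 2: ttagccgtggctcctcacatcaggtggagt
Sec14l3 probe 3: tcatatgatcctgctctgacaagaagatat
Sec14l3 probe 4: ttcattacctgacAATAAAgtttaactgaa
On the plus strand of mm8 they lie at chr11:3970101-3971424, chr11:3975248-3975307, chr11:3977466-3977525 and chr11:3978928-3978987. Of all probes on the array 4.8% hold AATAAA, and of the 11 probes described here 1 does.

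Probe 1 stood at 8.28 (heterozygous) and 7.34 (homozygous), a ratio of −0.94. Probe 2 gave 9.54 and 8.30 (−1.24), and probe 3 gave 9.26 and 8.14 (−1.12). Probe 4 gave 13.30 and 10.89, a ratio of −2.41. All 4 probes were lower in the homozygous lung, and probe 4 was lower by 1.17 more than the nearest of the others. Over 7144 genes the SD between probes of a gene was 0.27 as a root mean square and 0.16 as a median.

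Probe 4 was tied to Sec14l3 only through the name of its cDNA clone, which RefSeq lists as a synonym. The gene's median was −1.18 ± 0.24 with it, or 2.27-fold lower, and −1.12 without it. The gene was past 2-fold in both cases, but not with median centring in place of loess (−0.90). The offset added in background correction pulls dim probes towards 0, and with an offset of 0 the median was −1.33.

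The other 4 genes, Reg3g, Krt15, Gabrp and Chad, lay close together between −0.89 and −0.73, short of 2-fold. Reg3g, an antibacterial C-type lectin of mucosal epithelia (chr6:78395935-78395994, minus strand of mm8), stood at 10.17 (heterozygous) and 9.28 (homozygous), a ratio of −0.89 ± 0.22, or 1.85-fold lower. Krt15, a type I keratin known from basal cells (chr11:99948116-99948175, minus strand), stood at 12.55 and 11.76, a ratio of −0.78 ± 0.22. Its raw mean signals were 4228 (heterozygous) and 4952 (homozygous), so that, as for Scgb3a2, the red spot was brighter before dye correction. For Reg3g the raw signals were nearly equal before that correction, at 866 (heterozygous) and 860 (homozygous).

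Gabrp, the pi subunit of the GABA-A receptor (chr11:33452049-33452108, minus strand), stood at 8.28 (heterozygous) and 7.55 (homozygous), a ratio of −0.73 ± 0.23. Chad, chondroadherin, a leucine-rich repeat protein best known from cartilage matrix (chr11:94384912-94384971, plus strand), stood at 8.75 and 8.03, also −0.73 ± 0.22. Both are dim spots, with homozygous mean signals of 242 and 340 over backgrounds of 59 and 55. With an offset of 0 they were at −0.91 and −0.85.

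Ordered by ratio the genes ran Scgb3a1, Scgb1a1, Scgb3a2, Sec14l3, Reg3g, Krt15, Gabrp and Chad. Only the first 2 steps exceeded the combined scanner error, that from Scgb3a1 to Scgb1a1 by the values above and that from Scgb1a1 to Scgb3a2 with 1.12 against 0.41. From Scgb3a2 onwards neighbours differed by at most 0.30, within errors of 0.31 to 0.36. If Scgb3a2 is measured from like-bright genes instead, its distance of −2.06 lies nearer to the −2.49 of Scgb1a1.

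**Figure D3:**
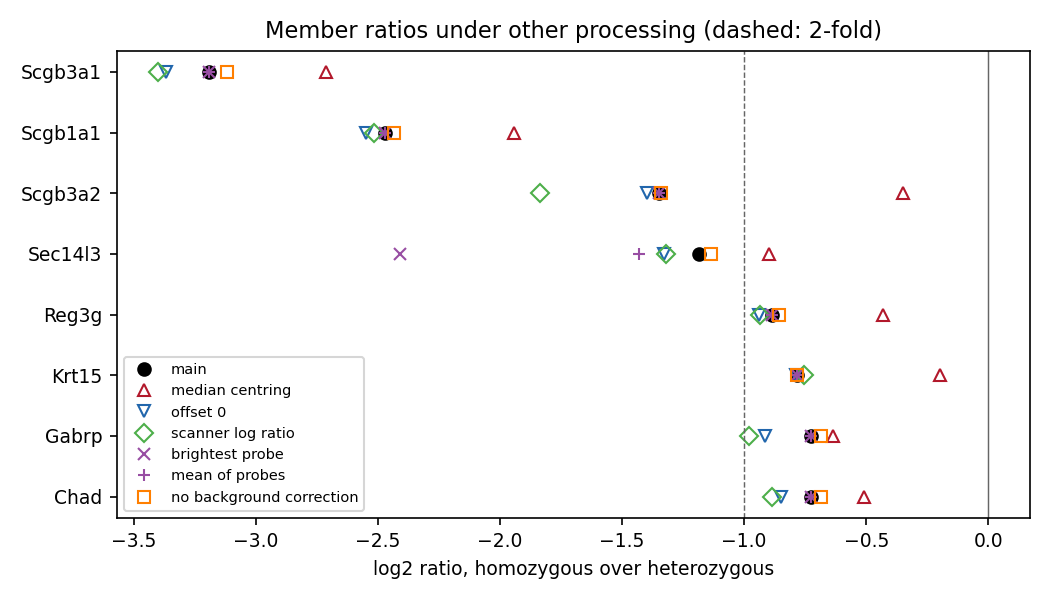
Log2 ratio of homozygous over heterozygous (horizontal axis) of each of the 8 genes (rows) under the main processing (black) and 6 alternatives (symbols in the legend); the dashed line marks 2-fold lower. Every symbol lies below 0; Scgb3a2 spans −1.83 to −0.35 and Sec14l3 −2.41 to −0.90, while Scgb3a1 and Scgb1a1 stay beyond −1.9.

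Promoter sequence was at hand in RefSeq's tables (GRCm38.p6) for 5 of the 8 genes, Scgb3a1, Sec14l3, Gabrp, Chad and Reg3g. Each window of 300 bases (250 before to 50 after the gene start) was searched on both strands for the forkhead motifs TGTTTNC and TATTTAC, for CTCAAG and CACTTG as NKX2-1 motifs and for TTNNGCAA as a C/EBP motif. The 250 bases before the start are shown for the 3 genes with a match, with matches in capitals.
Scgb3a1: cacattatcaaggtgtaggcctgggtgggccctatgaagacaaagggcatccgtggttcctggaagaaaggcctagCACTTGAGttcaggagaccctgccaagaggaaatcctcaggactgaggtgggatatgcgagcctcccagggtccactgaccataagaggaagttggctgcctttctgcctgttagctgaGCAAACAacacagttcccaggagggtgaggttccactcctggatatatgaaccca
Chad: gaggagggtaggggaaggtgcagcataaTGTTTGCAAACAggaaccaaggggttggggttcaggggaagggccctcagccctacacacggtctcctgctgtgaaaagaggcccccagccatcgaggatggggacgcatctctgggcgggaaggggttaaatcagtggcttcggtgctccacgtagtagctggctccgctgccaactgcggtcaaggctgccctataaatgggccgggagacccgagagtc
Reg3g: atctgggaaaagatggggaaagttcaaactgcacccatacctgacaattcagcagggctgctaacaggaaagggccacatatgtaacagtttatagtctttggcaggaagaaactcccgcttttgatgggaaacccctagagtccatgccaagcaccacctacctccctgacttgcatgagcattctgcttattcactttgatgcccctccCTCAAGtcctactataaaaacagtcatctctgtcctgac
These stretches are chr11:49663345-49663594 (plus strand), chr11:94564797-94565046 (plus) and chr6:78468875-78469124 (minus) of GRCm38.p6, a build other than that of the probes.

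In the Scgb3a1 promoter a forkhead match lay from −55 to −49 before the start, and CACTTG (−174 to −169) overlapped a CTCAAG match on the other strand (−172 to −167). Chad had 2 overlapping forkhead matches between −222 and −211 and a CTCAAG after its start, and Reg3g had CTCAAG from −39 to −34. TGTTTNC was found in 2 of the 5 windows and in 20.5% of all 32851, CTCAAG in 3 of 5 against 15.9%, and CACTTG in 1 of 5 against 13.6%. TATTTAC (3.0% of all) and TTNNGCAA (10.8%) were in none of the 5. A match is a description of the letters and says nothing about binding.

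Enzymes by which club cells oxidise and conjugate compounds were in part lower. Of 26 listed genes, 23 were detected, and 18 of them had a ratio below 0, against 50.4% of all detected genes. Of the 23, 3 were at least 2-fold lower and none higher, against 1.88% and 0.576%. The median was −0.41, beside −0.50 for alveolar type II and −0.43 for alveolar type I genes. Those past 2-fold were Cbr2, a carbonyl reductase abundant in lung (−1.75 ± 0.26), the cytochrome Cyp2f2 (−1.52 ± 0.25) and the flavin monooxygenase Fmo2 (−1.44 ± 0.25). At the other end Aldh1a7, an aldehyde dehydrogenase, stood at 0.36 ± 0.21.

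Other secreted or surface products of airway secretory cells were divided. Of 26 listed, 23 were detected, 17 of them below 0 against 50.4% of all detected genes, and the median was −0.11. Of the 23, 4 were at least 2-fold lower and 1 higher, against 1.88% and 0.576%. Agr2, which helps mucins to fold (−1.50 ± 0.26), Upk3a, a uroplakin of a club cell subset (−1.33 ± 0.24), haptoglobin Hp (−1.31 ± 0.24) and the chemokine Cxcl15 (−1.16 ± 0.23) were at least 2-fold lower. Retnla, resistin-like alpha, was 2.31-fold higher at 1.21 ± 0.24, with both of its probes above 1. The mucins Muc5b (−0.17 ± 0.26) and Muc5ac (−0.05 ± 0.24) were dim in both channels.

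Regulators of the airway secretory lineage stayed within 2-fold. All 21 listed genes were detected, 13 were below 0 against 50.4% of all detected genes, and the median was −0.09. The lowest was the Notch target Hey1 (−0.73 ± 0.21) and the highest Foxa3 (0.31 ± 0.24). Nkx2-1, the transcription factor that marks lung epithelium, stood at 13.16 (heterozygous) and 13.01 (homozygous), so its RNA was detected in both channels.

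**Figure D4:**
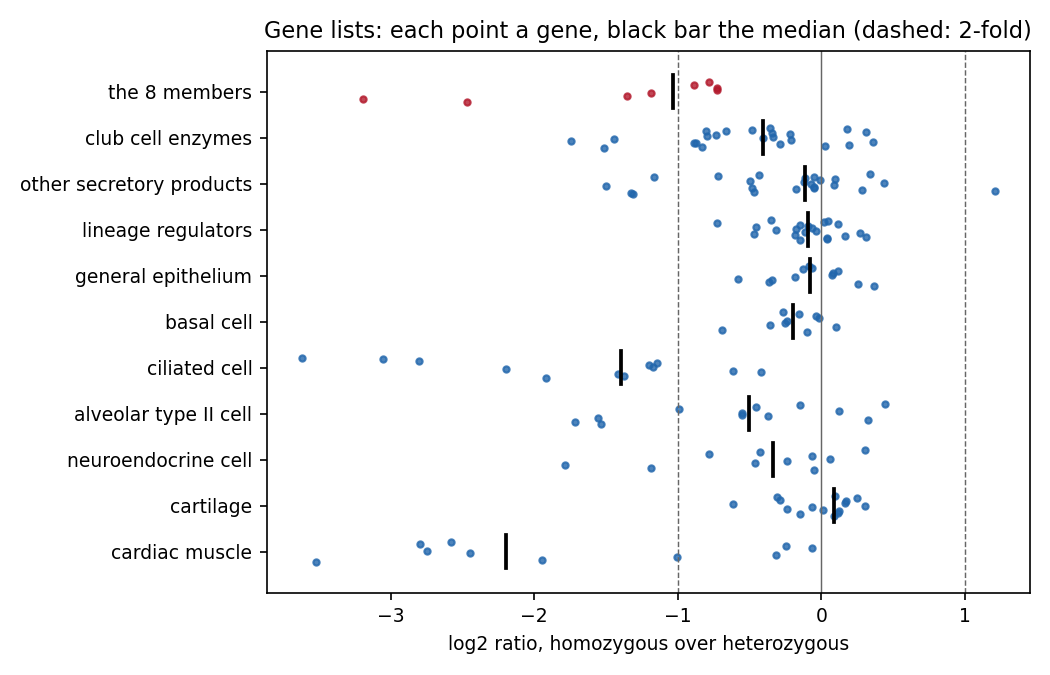
Log2 ratio of homozygous over heterozygous (horizontal axis) for every detected gene (points) of 11 gene lists (rows), with the list median as a black bar and dashed lines at 2-fold. The 8 genes described here (red) have a median of −1.03, between club cell enzymes at −0.41 and ciliated cell genes at −1.39, while lineage regulators, general epithelium, basal cell and cartilage genes centre between −0.20 and 0.09.

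Markers of other cells also differed between the channels, and their part in the ratios of the secretory genes was not tested. For ciliated cells 10 of 12 detected genes were at least 2-fold lower (median −1.39), against 1.88% of all detected genes. The summed level of the list was 4.68-fold lower in the homozygous lung. For cardiac muscle 7 of 10 were at least 2-fold lower (median −2.20, summed level 2.67-fold lower). For alveolar type II cells 3 of 12 were, led by the surfactant protein gene Sftpb (−1.72 ± 0.26), and for neuroendocrine cells 2 of 10 were. Sftpc, a surfactant protein gene with a very bright spot, stood at 0.33 ± 0.21, which is −0.54 from the median of 0.86 of the 32 genes as bright.

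General epithelial genes stayed within 2-fold. All 12 listed were detected, 0 were 2-fold different, the median was −0.07, and the adhesion molecule Epcam stood at 0.37 ± 0.21 and Krt19 at −0.58 ± 0.21. Beside Krt15, 0 of 10 listed basal cell genes were past 2-fold, with a median of −0.20. Ratios were −0.69 ± 0.22 for Krt5, 0.10 ± 0.21 for Krt14 and −0.10 ± 0.26 for Trp63. Trp63 was dim (7.28 heterozygous, 7.18 homozygous), and whether the Krt15 signal came from basal cells was not tested. For Chad, 0 of 15 cartilage genes were past 2-fold (median 0.09), with Col2a1 at 0.09 ± 0.21 and Acan at −0.15 ± 0.24. Of the cartilage genes measured in both channels, Matn4 was lowest (−0.61 ± 0.21) and Matn3 highest (0.30 ± 0.21). Krt15 was thus lower than the median of the basal cell list, and Chad lower than that of the cartilage list. Krt5 and Matn4 were close to them.

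Relatives of the single genes mostly stood nearer to 0. Among Sec14-like lipid-transfer proteins, 7 of 9 were detected and none was 2-fold different, with Sec14l4 lowest (−0.92 ± 0.22) and Sec14l1 highest (0.25 ± 0.21). Sec14l4 is also the gene next to Sec14l3. Of 6 other Reg genes only Reg1 (−0.41 ± 0.27) and Reg2 (−0.31 ± 0.31) were detected, both dim.

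Of 18 other GABA-A receptor subunits 12 were detected, 4 of them in 1 channel only, and none was 2-fold different (median −0.13). In both channels Gabrb2 was lowest (−0.34 ± 0.23) and Gabra5 highest (0.17 ± 0.46). Among type I keratins 10 of 14 were detected and none was 2-fold different (median −0.16). Krt19 (−0.58) and Krt13 (−0.30 ± 0.27) are the neighbours of Krt15. Krt17 (−0.36 ± 0.21) and Krt18 (−0.34 ± 0.21), which are not its immediate neighbours, stood within these errors of Krt13. Krt14 was highest. Among small leucine-rich repeat proteins 13 of 14 were detected (median −0.04), Aspn was past 2-fold (−1.02 ± 0.23) and Epyc was highest (0.60 ± 0.27).

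Of the 8 genes, 5 lie on chromosome 11, which also carries Foxj1 (probe at chr11:116146990-116147049 of mm8). Their probes lie 16.2 (Krt15), 21.8 (Chad), 66.6 (Scgb3a1), 82.7 (Gabrp) and 112.2 Mb (Sec14l3) before that of Foxj1. That chromosome holds 1656 of all 21171 detected genes. Over these 1656 the median ratio was 0.008, and 1.57% were at least 2-fold lower. The stretch around Foxj1 was not examined separately. Neighbouring genes were within 2-fold for Scgb3a1 (Flt4 at 0.38 ± 0.25 and Cnot6 at 0.04 ± 0.20) and for Scgb1a1 (Ahnak at −0.24 ± 0.21 and Asrgl1 at −0.08 ± 0.20). For Gabrp they were Ranbp17 (0.51 ± 0.27) and Kcnip1 (−0.15 ± 0.43). Chad overlaps Acsf2 in the RefSeq table, and Acsf2 stood at −0.35 ± 0.21. Its neighbours Rsad1 and Lrrc59 were at −0.03 and 0.37, and Mtfp1, on the other side of Sec14l3 from Sec14l4, was at −0.12.

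With 2 channels a gene's pattern is its ratio alone. Among 3957 RefSeq genes measured in both channels within 1 log2 unit of the brightness of Scgb1a1, the nearest ratios were those of Odf3b (−2.46 ± 0.32), the cardiac troponin gene Tnnt2 (−2.45 ± 0.32) and 1700007K13Rik (−2.26 ± 0.30). For Scgb3a1, among 4266 such genes, they were Cthrc1 (−3.33 ± 0.41), Meig1 (−3.01 ± 0.36) and Fam183b (−3.62 ± 0.41).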

How the data were processed

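The 2 scanner files are identical copies of the same two-colour Agilent array and were counted once. The submitters' processing notes name Agilent Feature Extraction 9.5.3.1. Spot and local background intensity were deposited on a linear scale. Per the file headers, the scanner software also wrote a processed intensity, after subtracting background and balancing the dyes, and a log10 ratio of red over green. The deposited series matrix is that processed intensity, taken from the channel of each sample and multiplied by 1.68, with 15 as the lowest value, found by comparison with the scanner values (SD of the log2 factor 0.060 and 0.053 in the matching channels, 0.39 in the opposite ones). Its medians are 139.8 (heterozygous) and 138.8 (homozygous), and the reason for the factor is unknown.

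Mean signals were corrected by normexp (offset 50) with the local background and loess-normalized in limma 3.58.1 (R 4.3.3), with control spots at weight 0, and 169 outlier spots were then left out. This was tested on simulated spots with a dye bias that changed linearly with log2 intensity. The test did not cover the shift left after loess among the brightest genes. Probes with over 0.5 of their spots well above background, in 1 channel or both, were kept, and their median is the gene's value. Names came from RefSeq (GRCm38.p6) by accession for 24367 probes, by symbol for 6307 and by synonym for 2425, while 8075 kept the file's name. Plots and summaries used Python 3.11.15, numpy 2.4.6, pandas 2.3.3 and matplotlib 3.10.9. Array depth has no count, and 1 array limits the precision.

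The rule named the 8 members, Foxj1, the genes of each pathway or family list past 2-fold with its lowest and highest gene in both channels, the genes nearest in ratio, and neighbours. Muc5b, Muc5ac, Nkx2-1, Cckar, Krt17, Krt18 and the cell type markers given were named after their values were seen. Members and lists were chosen with earlier results of these data known. Lists share some genes. The 10 alternatives concerned the offset, background correction, loess, filter on dim probes, outlier spots, probe summary and source of the values. The scanner software's ratio and the series matrix replace background and dye correction together.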

Additional observations from a re-analysis of the deposited data

How the results depend on the processing

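Of 80 values (8 genes under 10 alternatives) 38 equal the main value, because 7 genes have 1 probe and all passed every filter, and the series matrix repeats the scanner software's ratio for all 8. Of the other 34, all were below 0 and 24 moved by less than the gene's scanner error. Median centring in place of loess left 2 genes at least 2-fold lower, Scgb3a1 (−2.71) and Scgb1a1 (−1.94), and a median of −0.57, while the median of all genes was 0.22. It took Sec14l3 to −0.90, Scgb3a2 to −0.35, Reg3g to −0.43 and Krt15 to −0.20. Measured from that shifted median, the distances were −2.93 for Scgb3a1, −2.16 for Scgb1a1, −1.12 for Sec14l3 and −0.57 for Scgb3a2. The other 9 alternatives, and a further one chosen after seeing the data that left out probe 4 of Sec14l3, gave 4 genes at least 2-fold lower and 0 higher, with medians from −1.15 to −0.997. Lower and higher genes over the whole array numbered 773 and 221 with an offset of 0, 1143 and 593 with the scanner software's ratio, and 1139 and 457 with the series matrix. Sec14l3 was at −2.41 by its brightest probe and −1.43 by the mean. No paired analysis was possible because each genotype has 1 lung, and for the same reason no sample could be left out. Signal over background limits Gabrp, Chad and Sec14l3 most, whose homozygous spots were 3.74 to 7.70 times their background, apart from probe 4 of Sec14l3.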

Other observations

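Lists for cells outside the airway lining gave the following values, described and not tested. Stratified squamous epithelium had 10 of 12 genes detected, 0 past 2-fold and a median of −0.04. Thymus and thyroid had 4 of 8 detected and a median of −0.15. Smooth muscle (median 0.21), mesenchyme (−0.03), endothelium (−0.16) and leukocytes (0.04) had no gene past 2-fold. Alveolar type I cells had 2 of 10 at least 2-fold lower (median −0.43), erythroid cells 1 of 7 (−0.84) and mesothelium 1 of 8 (0.45).

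Retnla was the 1 gene of its list at least 2-fold higher in the homozygous lung, at levels of 10.95 (heterozygous) and 12.16 (homozygous). Cckar, a receptor listed with them, stood at −0.05 ± 0.20.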
